A study of Mus musculus with 28 samples.

Results

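The response to kainic acid of RNA bound to tagged ribosomes in the CaMK2a-Cre line was examined in 6 of the 28 RNA-seq libraries of the series, which cover 8 groups. The members were chosen by their labels, as the immunoprecipitated (IP) libraries of this line from mice given kainic acid or phosphate-buffered saline (PBS), with 3 libraries in each group. All mice were CaMK2a-Cre/+; LSL-Rpl22-HA/+ on a C57BL/6 background and 3 to 4 weeks old, so that Cre frees an HA-tagged copy of the ribosomal protein Rpl22 in cells with a history of CaMK2a promoter activity. In the first group the mice had been injected intraperitoneally with kainic acid 6 hours before the CA1 region of the hippocampus was dissected; in the second they had been injected with PBS. The sample labels give 6 hours for PBS as well, while the columns of the deposited count table name these libraries as a 0-hour time, so the interval after PBS is uncertain. Each library came from the pooled tissue of 4 mice, so the replicate is a pool. Ribosomes were pulled down with 12 µg of anti-HA antibody, and 20 ng of RNA was amplified before sequencing. Further libraries are used below to show where this response differs, namely the 6 input libraries (3 after kainic acid, 3 after PBS), made from the lysate before the pull-down, and the 8 IP libraries (4 and 4) of PV-Cre mice with the same tagged allele, treatments and age, in which 9 to 10 mice were pooled and 2.5 ng of RNA was used. The comparison addresses which transcripts change on the ribosomes of CaMK2a-Cre neurons after kainic acid.

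Kainic acid activates glutamate receptors of the kainate class and drives intense firing of hippocampal networks. Calcium entry and MAP kinase signalling during such firing switch on early transcription factors such as Fos, and these in turn drive later genes for secreted factors, receptors and synaptic proteins. Inhba, Fos, Bdnf and Scg2, given as markers of the response, stand for these steps, as a transcription factor (Fos), a subunit of the secreted protein activin (Inhba), a neurotrophin (Bdnf) and a precursor stored in dense-core vesicles (Scg2). RiboTag pull-down enriches RNA from the cells that carry the tag and does not measure translation itself.

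Levels are given as CPM, a gene's counts per 1 M reads in genes, with each library total first multiplied by its TMM factor, which corrects for differences in RNA composition. The factors were set within the libraries of each comparison, so a library's CPM can differ between comparisons. The marker levels of the PBS IP and PBS input that come next are on the factors of the 12 CaMK2a libraries, and levels of the response in the IP are on those of its 6 libraries. Markers of CA1 pyramidal neurons, interneurons and glia agreed in direction with the label of the line. In the PBS libraries, 13 of 14 markers of CA1 pyramidal neurons were higher in the IP than in the input, by a median log2 ratio of 0.63. The median log2 ratio of IP to input was -2.40 for 17 markers of GABAergic interneurons, -2.66 for 14 of astrocytes, -2.35 for 11 of oligodendrocytes and -3.17 for 14 of microglia. The summed level of the interneuron markers differed less, at 2851 CPM in the PBS IP and 3567 CPM in the PBS input. Markers of other excitatory neurons were mostly lower in the IP. Of CA2 and CA3 markers 1 of 10 was higher there (median log2 ratio -0.76), and of dentate granule cell markers 1 of 8 (-0.28). Camk2a stood at 8316 ± 733 CPM in the PBS IP and 7185 ± 483 CPM in the PBS input (SD, n = 3 each), while the vesicular glutamate transporter gene Slc17a7 stood at 922 ± 40.9 CPM in the IP and 1217 ± 113 CPM in the input. RNA of other cells was reduced but present in the IP, with Gad1 at 27.0 CPM and Mbp at 448 CPM in the PBS IP. Total counts ran from 7.93 M to 9.75 M in the kainic acid libraries and from 7.48 M to 15.3 M in the PBS libraries. Replicates varied more after kainic acid: the median SD of log2 CPM over 7782 genes was 0.172 after kainic acid and 0.101 after PBS. Kainic acid library 2 had the lowest CPM of the 3 kainic acid libraries for 568 of the 828 genes (68.6%) that rose at least 2-fold, against 35.6% of all genes tested. In these bulk samples, fewer cells of a type and less RNA per cell cannot be told apart.

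Of 10663 genes tested, 2111 (19.8%) were higher after kainic acid and 1633 (15.3%) were lower at an adjusted p under 0.05 in edgeR's quasi-likelihood test, and these are said below to have risen or fallen. At least 2-fold changes were more often rises, with 828 rises (7.77% of the genes tested) and 279 falls (2.62%). The asymmetry grew with size: 555 rises and 253 falls lay between 2- and 4-fold, 146 and 20 between 4- and 8-fold, 48 and 6 between 8- and 16-fold, and 79 and 0 above 16-fold. The rises above 16-fold include 14 genes with no count in any PBS library. Those passed the filter on low counts through the kainic acid libraries alone, so their direction was fixed. The 828 genes took 11.2%, 8.0% and 10.2% of all counts in the kainic acid libraries, against 2.97%, 2.95% and 2.96% in the PBS libraries. The 279 genes that fell at least 2-fold took 0.426%, 0.486% and 0.426% of counts after kainic acid, against 1.15%, 1.18% and 1.16% after PBS. The median log2 change over all genes tested was 0.007. Scaling by upper-quartile factors shifted that median to -0.094 and gave 1674 rises and 2276 falls, so that 42.4% of the called genes were rises there, against 56.4%. The number of falls was 1013 without PBS library 1 and 979 without PBS library 3.

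**Figure D1:**
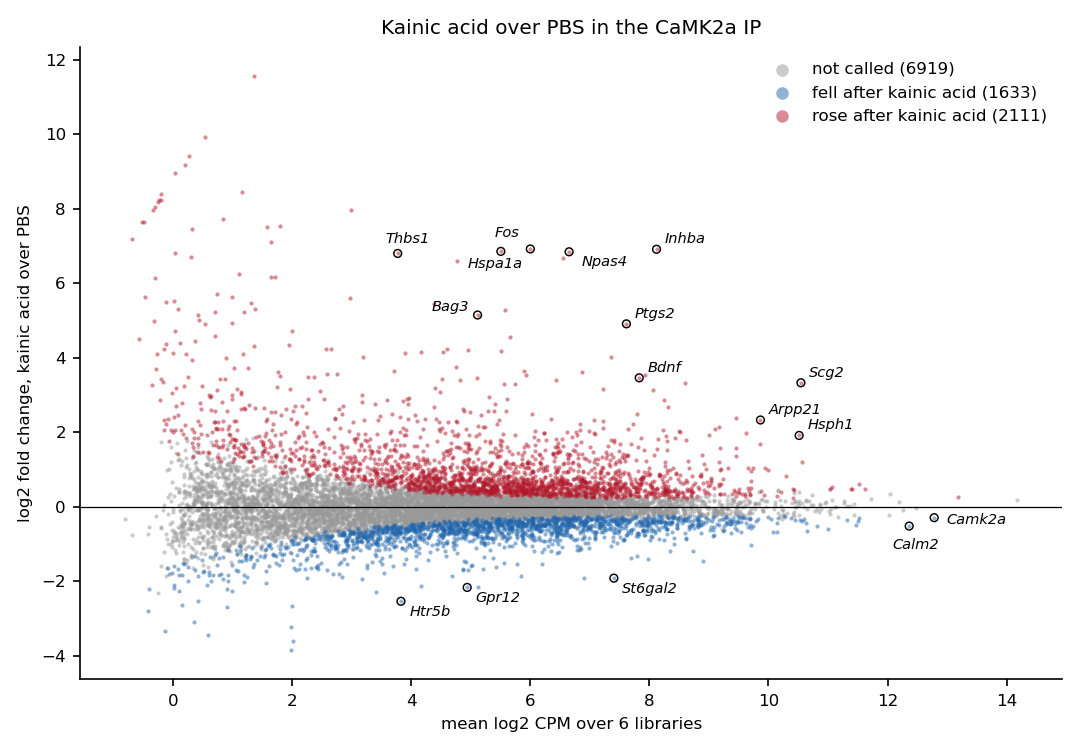
Log2 change (kainic acid over PBS, vertical axis) of the 10663 genes tested in the CaMK2a IP against their mean log2 CPM over the 6 libraries (horizontal axis). Red points are the 2111 genes that rose, blue points the 1633 that fell and grey points the 6919 others; the rises reach much farther from 0 than the falls.

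Inhba, which encodes the βA subunit of inhibins and activins (gene ID 16323, chr13:16011832-16027723 on the + strand, 5 exons, mm10 coordinates as in the files), had 3536, 2382 and 3280 CPM in kainic acid libraries 1 to 3, against 21.4, 26.2 and 29.2 CPM in PBS libraries 1 to 3. That is a log2 change of 6.91 ± 0.19 (SE), or 120.3-fold (edgeR adjusted p = 3.39e-08). Fos, the AP-1 transcription factor used as a marker of recent activity (gene ID 14281, chr12:85473901-85477269 on the + strand, 4 exons), had 607, 323 and 533 CPM after kainic acid and 4.15, 3.94 and 4.49 CPM after PBS. Its log2 change was 6.85 ± 0.26 (edgeR adjusted p = 3.86e-07), with PBS libraries that lay within 1 CPM of each other. Bdnf, a neurotrophin that acts through the receptor TrkB (gene ID 12064, chr2:109674700-109727043 on the + strand, 9 exons), had 988, 538 and 779 CPM after kainic acid, against 72.8, 59.2 and 76.7 CPM after PBS, a log2 change of 3.46 ± 0.21 (edgeR adjusted p = 3.53e-06). Scg2, the precursor of the peptide secretoneurin (gene ID 20254, chr1:79434669-79440123 on the - strand, 2 exons), had 6107, 3431 and 4861 CPM after kainic acid and 489.8, 450.5 and 493 CPM after PBS, a log2 change of 3.33 ± 0.18 (edgeR adjusted p = 2.14e-06). Scg2 was the gene with the largest gain in mean CPM among those named by the rule, ahead of Inhba. All 4 genes were lowest in kainic acid library 2 among the kainic acid libraries, and in none did the groups overlap.

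**Figure D2:**
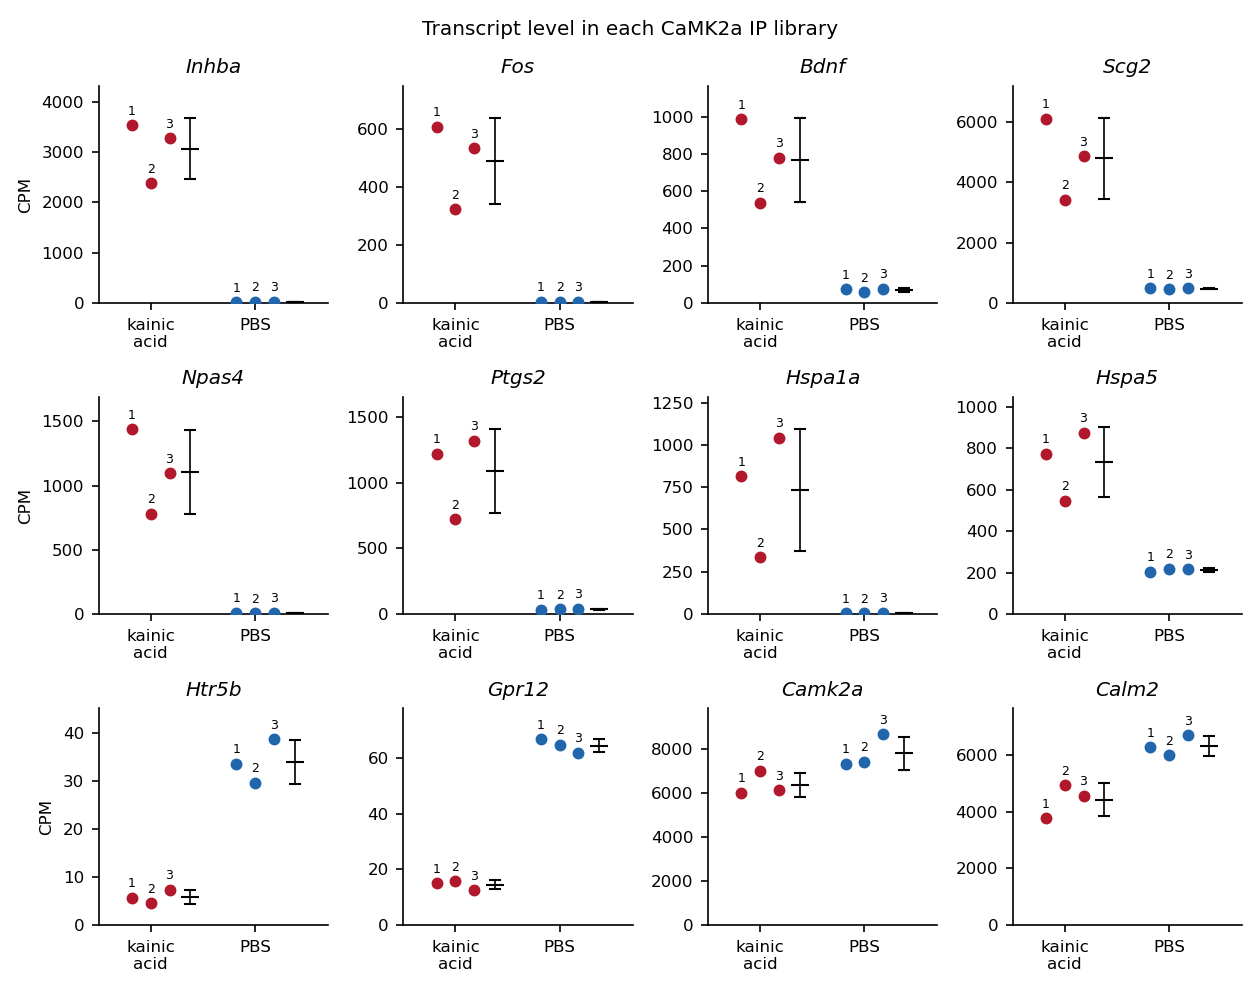
CPM (vertical axes) of 12 genes in each kainic acid library (red, left) and PBS library (blue, right) of the CaMK2a IP, numbered by replicate; black bars are the mean and SD of 3 libraries. Inhba lies between 2382 and 3536 CPM after kainic acid, against 21.4 to 29.2 CPM after PBS, and kainic acid library 2 is the lowest of its group for the 4 markers of the response.

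Besides Inhba and Fos, the largest rises by fold among well-measured genes were chaperone, transcription factor and matrix genes. Hspa1a, a stress-inducible cytosolic chaperone of the Hsp70 family, had 815, 337 and 1042 CPM after kainic acid, against 5.72, 5.72 and 6.69 CPM after PBS (log2 change 6.92 ± 0.42). Hspa1b, its near-identical neighbour, had 308, 138 and 370.1 CPM after kainic acid and 3.14, 3.30 and 2.01 CPM after PBS (log2 change 6.59 ± 0.40). Reads of these neighbours can be split between them in counting, so their separate values are uncertain; both were lowest in kainic acid library 2. Npas4, a neuron-specific transcription factor induced by calcium entry, had 1438, 781 and 1096 CPM after kainic acid and 10.8, 6.86 and 10.6 CPM after PBS (log2 change 6.84 ± 0.27). Thbs1, a matrix glycoprotein, had 242, 77.1 and 129 CPM after kainic acid and 1.76, 1.4 and 0.669 CPM after PBS (log2 change 6.80 ± 0.50), with kainic acid library 1 far above the other two. Bag3, a co-chaperone of Hsp70, had 192, 182 and 237 CPM after kainic acid and 5.97, 6.10 and 5.16 CPM after PBS (log2 change 5.15 ± 0.15). For Bag3 the kainic acid libraries lay close together. Ptgs2, the inducible cyclooxygenase that starts prostaglandin synthesis, had 1223, 725 and 1320 CPM after kainic acid and 32.4, 37.1 and 39.5 CPM after PBS (log2 change 4.91 ± 0.22). Pcdh8, an activity-induced protocadherin, had 236, 227 and 266 CPM after kainic acid and 9.11, 10.3 and 11.8 CPM after PBS (log2 change 4.55 ± 0.13). Fndc9 (5.43), Gadd45g (5.28), a stress-response gene, and Fosb, given with the transcription factors, complete the set of 12. The edgeR adjusted p was 3.53e-06 for Hspa1a and 1.12e-05 for Thbs1.

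In abundance rather than fold, the largest gains in mean CPM after Scg2 and Inhba included those of Hsph1, Arpp21, Nefl, Rgs4 and Dclk1. Hsph1, a nucleotide exchange factor for Hsp70, averaged 2868 ± 662 CPM after kainic acid and 760.1 ± 43.2 CPM after PBS (SD, n = 3 each, log2 change 1.92 ± 0.15). Arpp21, a cAMP-regulated phosphoprotein that binds calmodulin, averaged 2152 ± 783 CPM after kainic acid and 428 ± 46.9 CPM after PBS (log2 change 2.33 ± 0.24). Nefl, the light neurofilament chain, averaged 2324 ± 472 CPM after kainic acid and 1005 ± 47.0 CPM after PBS (log2 change 1.21 ± 0.13). All 3 were already abundant after PBS. Another 14 genes tested had no count in any PBS library; they passed the filter on low counts through the kainic acid libraries alone, which fixed their direction. The highest of them, chosen after its values were seen, was Serpinb2, an inhibitor of plasminogen activators. Serpinb2 had 335, 145 and 499 counts in the kainic acid libraries and 0 in each PBS library, which makes it at least 429-fold higher against a floor of 3 counts over the PBS group.

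Counts in the lists below are to be read beside the shares of all genes tested, 19.8% for rises and 15.3% for falls. Some members were at or near 0 counts after PBS, such as Trh, Crh, Gal, Lif, Ccl3, Areg, Hspb1, Timp1 and Drd4. They passed the filter on low counts through the kainic acid libraries alone, so they could be called only as rises. Both the list counts and the shares of all genes tested include such genes. Early transcription factors rose almost without exception. Of 27 tested members of this list, 25 rose and 0 fell, with a median log2 change of 2.07, against 0.007 over all genes tested; the 2 that were not called were Klf2 (-0.87 ± 0.70) and Srf (0.22 ± 0.11). In 25 of the 27 every kainic acid library lay above every PBS library, which held for 25.6% of all genes tested. Fosb, a partner of Fos in AP-1, had 1413, 563 and 983 CPM after kainic acid and 9.74, 7.37 and 11.6 CPM after PBS (log2 change 6.67 ± 0.35). Atf3, a stress-induced repressor, had 180.3, 57.8 and 147 CPM after kainic acid and 0.126, 0.127 and 1.34 CPM after PBS, and its log2 change was 7.96 ± 0.63. PBS library 3 carried most of the Atf3 signal of that group. These factors are known to be induced within minutes of activity, and their levels here are those at 6 hours.

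Effectors of synaptic activity, a list of small GTPases, pentraxins, scaffold and growth-arrest genes, rose in 22 of 26 tested members and fell in 0 (median log2 change 2.07). There was 1 fall under DESeq2, relative log expression or upper-quartile factors, no filter, the fit to all 12 libraries, or without kainic acid library 1 or 2. Cyr61, a matrix-associated protein, had 28.4, 19.9 and 22.4 CPM after kainic acid and 0.503, 0.254 and 0.0956 CPM after PBS (log2 change 6.16 ± 0.36). Pim1, a kinase, had 10.0, 7.09 and 5.08 CPM after kainic acid and 0, 0.635 and 0.0956 CPM after PBS (log2 change 5.23 ± 0.72, of uncertain size with PBS levels near 0). Gadd45g had 295, 202 and 411 CPM after kainic acid and 9.24, 6.86 and 6.88 CPM after PBS. The remaining rises ran from 0.44 for Lrrtm2 to 4.17 for Gadd45b on the log2 scale, and Arc and Homer1, which act at excitatory synapses, were among them. Nptxr, Rasgrp1, Cpeb4 and Cish were not called.

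Feedback inhibitors of MAP kinase signalling rose in 12 of 15 tested members and fell in 0 (median log2 change 1.53), with 1 fall under upper-quartile factors. Errfi1, an inhibitor of EGF receptors, had 1145, 460 and 945 CPM after kainic acid and 106, 118 and 127 CPM after PBS (log2 change 2.86 ± 0.28). The phosphatase genes Dusp4 (2.32 ± 0.12) and Dusp16 (2.02 ± 0.25) and the Ras pathway inhibitor Spry2 (2.02 ± 0.14) came next on the log2 scale. Dusp8, Spry1 and Spred3 were not called.

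Secreted signals formed the next tier. In the activin and TGF-beta pathway, 13 of 31 tested members rose and 4 fell (median log2 change 0.37; 0.142 without kainic acid library 1 and 0.228 without PBS library 3). The rises held ligands (Inhba, Tgfb2 and Tgfb3), the activin-binding antagonist Fst, receptors (Tgfbr1, Tgfbr2, Acvr1 and Bmpr1a) and nuclear regulators of Smad signalling (Smad3, Smad7, Ski, Skil and Tgif1). Tgif1, a repressor of Smad-driven transcription, had 4.87, 3.05 and 2.44 CPM after kainic acid and 0.0629, 0.508 and 0 CPM after PBS (log2 change 4.39 ± 0.76, of uncertain size with PBS levels near 0). Tgfbr2, a TGF-beta receptor, had 18.8, 11.9 and 12.9 CPM after kainic acid and 2.45, 2.80 and 3.25 CPM after PBS (log2 change 2.36 ± 0.26), and the inhibitory Smad7 had 63.1, 37.7 and 36.7 CPM after kainic acid and 12.4, 10.7 and 10.1 CPM after PBS (log2 change 2.03 ± 0.22). The falls were Inhbb (the βB subunit), Tgfbr3, and the activin receptor genes Acvr1b and Acvr2a, with log2 changes from -1.67 to -0.45. The genes of the βA and βB subunits thus changed in opposite directions.

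Growth factors that act through receptor tyrosine kinases rose in 11 of 28 tested members and fell in 2 (median log2 change 0.44; 0.689 without PBS library 2). The count of falls was 1 without PBS library 2 or 3 and 4 under upper-quartile factors. Hbegf, a ligand of EGF receptors, had 19.9, 10.5 and 18.6 CPM after kainic acid and 1.07, 1.78 and 1.62 CPM after PBS (log2 change 3.49 ± 0.33). Gdnf, a ligand of the Ret receptor complex, had 2.90, 3.27 and 3.92 CPM after kainic acid and 0, 0.381 and 0.287 CPM after PBS (log2 change 4.11 ± 0.68, of uncertain size with PBS levels near 0). Areg, another EGF receptor ligand, had 19, 19 and 84 counts after kainic acid, against 2, 0 and 1 counts after PBS. The neurotrophin Ntf3 (NT-3) and the sorting receptor gene Sort1 were the falls, Ntf3 by a log2 change of -1.98 ± 0.54, the opposite direction to Bdnf.

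The machinery of dense-core vesicles, which store and process peptides, rose in 10 of 17 tested members and fell in 4 (median log2 change 0.495). Without kainic acid library 3 or PBS library 3 the falls were 2. Pcsk1, a protease that cleaves prohormones, had 557, 248 and 463 CPM after kainic acid and 37.0, 26.9 and 38.3 CPM after PBS (log2 change 3.62 ± 0.28). Vgf, a granin-like peptide precursor, had 190.3, 215 and 242 CPM after kainic acid and 65.4, 47.3 and 58.2 CPM after PBS (log2 change 1.92 ± 0.14), and Syt4, a synaptotagmin of these vesicles, had 1493, 624 and 1396 CPM after kainic acid and 268, 268 and 288 CPM after PBS (log2 change 2.09 ± 0.26). Pcsk2, a second prohormone protease, fell, as did Rab27b, Cadps2 and Rab3a of the release machinery, with log2 changes from -0.65 to -0.28.

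Neuropeptide precursors rose in 15 of 22 tested members and fell in 0 (median log2 change 2.36), and all 15 rises were at least 2-fold; there was 1 fall without kainic acid library 1 or in the fit to all 12 libraries. Trh, the thyrotropin-releasing hormone precursor, had 24, 61 and 39 counts after kainic acid, against 0, 0 and 1 counts after PBS. Crh, for corticotropin-releasing hormone, had 37, 15 and 32 counts after kainic acid and 0, 2 and 0 counts after PBS. Gal, for galanin, had 21, 22 and 17 counts after kainic acid and 0, 2 and 0 counts after PBS. These peptides were at or near 0 after PBS, so no fold is given. They passed the filter on low counts through the kainic acid libraries alone, which fixed their direction, and the 15 rises include them. Pthlh, a parathyroid hormone-like peptide, had 9.75, 5.78 and 19.1 CPM after kainic acid and 0.251, 0.508 and 0.191 CPM after PBS (log2 change 5.23 ± 0.58). Npy and Sst, peptides of hippocampal interneurons, rose too: Npy had 24.8, 55.0 and 31.9 CPM after kainic acid and 1.45, 4.32 and 1.62 CPM after PBS (log2 change 4.03 ± 0.42), and Sst had 1095, 404 and 981 CPM after kainic acid and 75.6, 111 and 98.8 CPM after PBS (log2 change 3.12 ± 0.32). Among the other GABAergic markers, Gad1 rose to 72.3, 38.1 and 48.0 CPM after kainic acid, against 23.3, 29.7 and 23.0 CPM after PBS (log2 change 1.06 ± 0.22), and Gad2 averaged 117 ± 35 CPM after kainic acid and 42.0 ± 16 CPM after PBS (SD, n = 3 each; log2 change 1.49 ± 0.27). Of 14 tested markers of GABAergic interneurons these 4 rose and 0 fell (1 fell without kainic acid library 1, under upper-quartile factors or in the fit to all 12 libraries), and their summed level was 3248 to 3808 CPM after kainic acid, against 2526 to 2801 CPM after PBS. Sst is part of that sum and had the largest gain in CPM of these 4. The vesicular GABA transporter gene Slc32a1 had a log2 change of 0.07 ± 0.36 and Pvalb one of -1.08 ± 0.41, neither of them called. The part of interneuron RNA in the peptide rises was not tested.

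The windows of 250 bases before the annotated start were searched on both strands for the cyclic AMP response element TGACGTCA (CRE), bound by CREB. They were also searched for the pattern TGANTCA. It takes in the AP-1 site of Fos and Jun proteins, TGACTCA or TGAGTCA, but also TGAATCA and TGATTCA, which differ from that site. A CRE stood in 36 of 848 windows (4.25%) of the genes that rose at least 2-fold, in 5 of 276 (1.81%) of those that fell at least 2-fold and in 273 of 10849 (2.52%) of all genes tested. The wider pattern TGANTCA stood in 8.37%, 6.16% and 4.39% of these windows. Among dense-core vesicle genes 3 of 16 windows held a CRE, as did 3 of 14 among the feedback inhibitors, the highest shares of the lists. Other lists with many rises differed. Neuropeptide precursors held a CRE in 2 of 19 windows (10.5%) and synaptic activity effectors in 2 of 21 (9.52%). The transcription factors held it in 1 of 27 windows and regulators of G protein signalling in 0 of 18. Windows were found for 638 of the 828 genes that rose at least 2-fold, 223 of the 279 that fell and 8440 of the 10663 tested. Among the 27 transcription factors, 20 had a window. The activin and TGF-beta pathway held a CRE in 0 of 28 windows. Nuclear-encoded respiratory chain genes, few of which were called, held it in 5 of 62 (8.06%). Shown here are the windows of 3 peptide-pathway genes that rose and hold a CRE. That of Bdnf is also shown, where 1 of 7 windows matches TGANTCA, with the letters TGAATCA. Windows are RefSeq, GRCm38.p6, 5′ to 3′ on the gene's strand, with the motif in capitals.
Scg2 (chr1:79440027-79440276, minus strand): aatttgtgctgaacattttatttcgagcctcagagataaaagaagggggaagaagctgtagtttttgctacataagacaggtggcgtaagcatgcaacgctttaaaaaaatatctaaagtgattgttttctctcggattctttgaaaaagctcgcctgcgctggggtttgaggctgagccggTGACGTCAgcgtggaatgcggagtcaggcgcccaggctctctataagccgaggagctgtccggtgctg
Pcsk1 (chr13:75089607-75089856, plus strand): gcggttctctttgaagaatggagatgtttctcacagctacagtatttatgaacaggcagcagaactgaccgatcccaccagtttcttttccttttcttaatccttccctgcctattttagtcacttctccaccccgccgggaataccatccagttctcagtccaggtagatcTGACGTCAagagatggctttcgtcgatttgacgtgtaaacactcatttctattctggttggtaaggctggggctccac
Sst (chr16:23890845-23891094, minus strand): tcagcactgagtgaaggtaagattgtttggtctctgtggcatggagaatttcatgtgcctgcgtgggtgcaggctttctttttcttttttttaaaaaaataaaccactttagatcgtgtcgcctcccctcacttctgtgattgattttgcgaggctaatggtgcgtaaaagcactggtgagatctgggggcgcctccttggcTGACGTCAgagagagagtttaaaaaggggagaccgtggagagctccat
Bdnf (chr2:109676782-109677031, plus strand): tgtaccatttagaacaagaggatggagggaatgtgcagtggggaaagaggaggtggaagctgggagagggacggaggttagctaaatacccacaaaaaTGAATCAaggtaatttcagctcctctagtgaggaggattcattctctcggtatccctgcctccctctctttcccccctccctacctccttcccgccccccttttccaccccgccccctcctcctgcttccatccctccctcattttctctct
The CRE starts 68 bases before the start of Scg2, 78 before that of Pcsk1 and 48 before that of Sst. The TGAATCA match starts 152 bases before this start of Bdnf. A match describes the letters of a window and does not show binding.

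Regulators of G protein signalling, which shorten the action of G-protein-coupled receptors, rose in 11 of 16 tested members and fell in 1 (median log2 change 1.04), with 0 falls without PBS library 3. Rgs2 had 879, 608 and 1027 CPM after kainic acid and 78.9, 70.2 and 68.4 CPM after PBS (log2 change 3.53 ± 0.18), and Rgs4 had 2111, 1162 and 1588 CPM after kainic acid and 338, 273 and 328 CPM after PBS (log2 change 2.37 ± 0.19). Rgs16 (1.89 ± 0.32) and Rgs10 (1.5 ± 0.24) followed on the log2 scale. Rgs19 was the fall.

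Prostaglandin genes rose in 4 of 10 tested members and fell in 1 (median log2 change 0.35); the rises were 2 without kainic acid library 3 and the falls 0 without PBS library 1. Besides Ptgs2, the constitutive cyclooxygenase gene Ptgs1 had 7.77, 8.18 and 6.99 CPM after kainic acid and 1.45, 1.52 and 1.15 CPM after PBS (log2 change 2.47 ± 0.28). Pla2g4a, the phospholipase that frees arachidonic acid, had a log2 change of 2.48 ± 0.60, and its call ended without kainic acid library 3 (adjusted p = 0.0663). Ptger4, a prostaglandin E2 receptor gene, had a log2 change of 1.48 ± 0.45 that lost its call without kainic acid library 3 or PBS library 2 or 3 (adjusted p 0.0879 to 0.135). The summed level of the list was 841 to 1464 CPM after kainic acid, against 146 to 164 CPM after PBS. Most of that sum after kainic acid was Ptgs2 alone, at 1223, 725 and 1320 CPM.

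Cytokine signalling genes rose in 17 of 27 tested members and fell in 2, among them Nfkb2 (median log2 change 1.15); falls were 1 without kainic acid library 1 or 3 or PBS library 2 or 3, and 0 without PBS library 1. Socs3, a feedback inhibitor of cytokine receptors, had 14.6, 5.56 and 11.9 CPM after kainic acid and 0.189, 0.127 and 0.287 CPM after PBS (log2 change 5.62 ± 0.52). Lif, a cytokine of the interleukin-6 family, had 105, 16 and 66 counts after kainic acid and 0, 2 and 0 counts after PBS. The chemokine Ccl3 had 83, 25 and 81 counts after kainic acid and 0, 1 and 0 counts after PBS. Ptx3, a pentraxin of innate immunity, had 18, 11.2 and 19.9 CPM after kainic acid and 0.817, 1.4 and 0.287 CPM after PBS (log2 change 4.34 ± 0.41). Signal transducers of the interleukin-6 receptor family were among the rises (Il6st, Il6ra, Osmr, Jak1, Jak2 and Stat3).

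Matrix and protease genes rose in 15 of 41 tested members and fell in 4 (median log2 change 0.41; 0.187 without kainic acid library 1 and 0.22 without PBS library 3), with 7 falls under upper-quartile factors. Acan, the core protein of aggrecan in perineuronal nets, had 16.6, 15.8 and 33.4 CPM after kainic acid and 0.314, 0.508 and 0.0956 CPM after PBS (log2 change 6.17 ± 0.48). Timp1, an inhibitor of metalloproteinases, had 44, 35 and 112 counts after kainic acid and 0 in each PBS library, at least 81.7-fold higher. Adamts2, Nov, Bcan and Tnr were the falls, so that of the net-forming proteoglycans Acan rose while Bcan fell.

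Protein folding genes rose in the cytosol and in the endoplasmic reticulum. Of 33 tested heat shock chaperones and co-chaperones, 20 rose and 2 fell (Hspa1l and Hspa12a; 1 fall without kainic acid library 3 or PBS library 1 or 3), with a median log2 change of 0.64. Hspb1, a small heat shock protein, had 143, 59 and 185 counts after kainic acid and 2, 0 and 0 counts after PBS. Beyond the named members the rises ran from 0.28 (Fkbp4) to 2.32 (Dnajb1) on the log2 scale and held the constitutive Hspa8 and both cytosolic Hsp90 genes. In the list of endoplasmic reticulum stress and secretory folding, 14 of 29 rose and 2 fell (median log2 change 0.27); the rises were 9 without PBS library 2. Hspa5, the chaperone BiP, had 774, 547 and 875 CPM after kainic acid and 204, 219 and 217 CPM after PBS (log2 change 1.78 ± 0.15). Sdf2l1, a component of the same folding complex, had 37.9, 51.2 and 48.0 CPM after kainic acid and 11, 8.64 and 12.5 CPM after PBS (log2 change 2.08 ± 0.17), and Sec61a1, of the translocation channel, had a log2 change of 0.94 ± 0.11. Crebrf, a repressor of this stress response, fell (log2 change -0.91 ± 0.15), as did Sel1l. The other 13 members were not called, among them Dnajb9, Pdia4, Hyou1 and Manf.

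The ER stress element, bound by Atf6, is made of CCAAT and CCACG with 9 free bases between them. It stood in 10 of 25 windows (40.0%) of the endoplasmic reticulum list, against 13 of 10849 windows (0.12%) of all genes tested. The list includes known targets of this element. Of the 10 genes, Hspa5, Hsp90b1, Calr, Pdia6, Creld2 and Ero1lb rose, and Canx, Dnajc3, Syvn1 and Derl3 were not called. The windows of 2 that rose are shown to set the element in its place; GRCm38.p6, 5′ to 3′, motifs in capitals.
Hspa5 (chr2:34771840-34772089, plus strand): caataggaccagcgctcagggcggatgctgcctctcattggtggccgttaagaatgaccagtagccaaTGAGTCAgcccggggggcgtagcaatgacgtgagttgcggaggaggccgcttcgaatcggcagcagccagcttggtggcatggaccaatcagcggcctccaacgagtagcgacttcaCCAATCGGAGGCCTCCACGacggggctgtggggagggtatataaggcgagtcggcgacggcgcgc
Creld2 (chr15:88819396-88819645, plus strand): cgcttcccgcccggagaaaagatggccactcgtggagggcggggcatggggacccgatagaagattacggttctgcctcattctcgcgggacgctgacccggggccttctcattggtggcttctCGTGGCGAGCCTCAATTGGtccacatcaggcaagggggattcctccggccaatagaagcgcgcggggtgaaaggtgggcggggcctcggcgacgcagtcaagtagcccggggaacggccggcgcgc
In Hspa5 an AP-1 site starts 182 bases and the element 65 bases before the start; in Creld2 the element starts 126 bases before it and reads on the opposite strand. The heat shock element, searched as GAA, TTC and GAA each 2 bases apart, stood in 2 of 38 windows (5.26%) of the heat shock list and in 0.38% of the windows of all genes tested.

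Amino acid response genes under Atf4 rose in 12 of 23 tested members and fell in 0 (median log2 change 0.60). Trib1, a pseudokinase, had 189, 86.6 and 132 CPM after kainic acid and 17.8, 17.0 and 19.9 CPM after PBS (log2 change 2.90 ± 0.25). Ppp1r15a, which restores initiation by dephosphorylating eIF2α (1.82 ± 0.22), Sesn2, a leucine sensor of the mTORC1 pathway (1.77 ± 0.18), and Slc7a5, an amino acid transporter (1.68 ± 0.11), came next on the log2 scale. Ddit3, which encodes CHOP of the same pathway, had a log2 change of -0.23 ± 0.27 and was not called. Aminoacyl-tRNA synthetases rose in 7 of 15 tested members and fell in 0 (2 fell without kainic acid library 1), with a median log2 change of 0.26. Eprs, which charges glutamate and proline, had 356, 140 and 189 CPM after kainic acid and 51.7, 74.0 and 45.1 CPM after PBS (log2 change 2.01 ± 0.31), and Hars had a log2 change of 1.04 ± 0.09.

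Genes of the translation apparatus moved by small amounts. Ribosome biogenesis genes rose in 13 of 28 tested members and fell in 0 (median log2 change 0.44), with 7 rises without kainic acid library 3 or any 1 of the PBS libraries and 1 fall under upper-quartile factors or in the fit to all 12 libraries. Rrp1b, a nucleolar factor, had 17.2, 15.3 and 17.3 CPM after kainic acid and 6.10, 4.70 and 6.40 CPM after PBS (log2 change 1.52 ± 0.19), and Nolc1 had a log2 change of 1.09 ± 0.12. Initiation and elongation factors rose in 22 of 46 and fell in 0 (median log2 change 0.33; 14 rises without kainic acid library 3). Pabpc4, a poly(A)-binding protein, had 19.4, 21.7 and 25.1 CPM after kainic acid and 6.72, 7.12 and 8.79 CPM after PBS (log2 change 1.55 ± 0.18). Cytosolic ribosomal proteins rose in 30 of 67 and fell in 0 (median log2 change 0.38). That count was 9 without kainic acid library 3, 13, 16 and 10 without PBS libraries 1, 2 and 3, 16 under upper-quartile factors and 17 with replicate number as a block, and 1 fell without kainic acid library 2 or in the fit to all 12 libraries. Rpl9 had the largest change (1.60 ± 0.38); ribosomal protein genes have many processed copies, so their separate values are uncertain. Proteasome subunits rose in 9 of 37 and fell in 0 (median log2 change 0.20), with 15 rises without kainic acid library 1, 3 without kainic acid library 3, 4, 3 and 4 without PBS libraries 1, 2 and 3, 4 under upper-quartile factors, and 1 fall without kainic acid library 2. The 9 proteasome rises were near the share of rises over all genes tested. Psmc6, of the regulatory particle, had 59.0, 62.2 and 66.7 CPM after kainic acid and 37.9, 39.1 and 37.6 CPM after PBS (log2 change 0.71 ± 0.10).

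**Figure D3:**
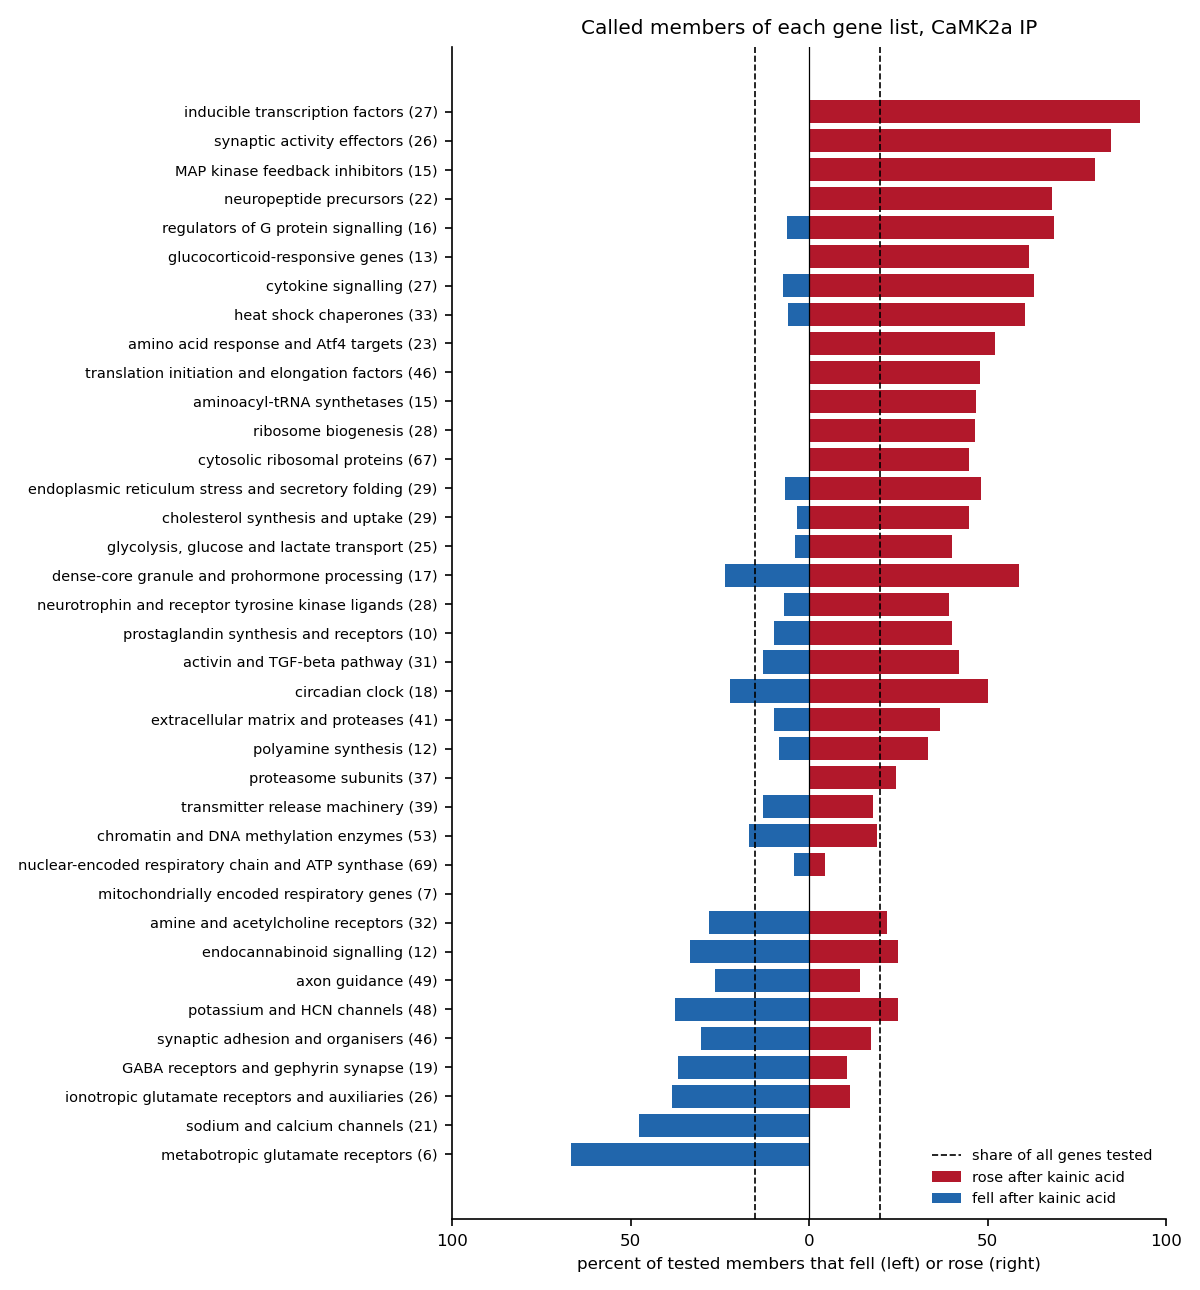
Percent of the tested members of each gene list that rose (right) or fell (left) after kainic acid in the CaMK2a IP; dashed lines mark the shares over all genes tested, 19.8% for rises and 15.3% for falls. Transcription factors, effectors and feedback inhibitors lie far to the right, while receptor and channel lists reach beyond the line on the left.

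Cholesterol synthesis and uptake genes rose in 13 of 29 tested members and fell in 1, Scap (median log2 change 0.43). Cyp51, a demethylase of the pathway, had 173, 99.2 and 186 CPM after kainic acid and 34.6, 36.9 and 44.4 CPM after PBS (log2 change 1.98 ± 0.22). Pmvk (1.78 ± 0.15) and Sc5d (1.59 ± 0.20) also rose on the log2 scale. Glycolysis and transport genes rose in 10 of 25 and fell in 1, Slc16a7 (median log2 change 0.30). The lactate transporter gene Slc16a1 had 83.9, 43.7 and 71.2 CPM after kainic acid and 16, 21.9 and 16 CPM after PBS (log2 change 1.89 ± 0.23). The glucose transporter genes Slc2a1 (1.64 ± 0.21) and Slc2a3 (1.41 ± 0.12) and Pfkfb3, which makes the activator of phosphofructokinase (1.42 ± 0.15), rose as well, while Gapdh, Tpi1 and Eno1 were not called.

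Polyamine genes rose in 4 of 12 and fell in 1 (median log2 change 0.25); rises were 2 without PBS library 1, and falls were 2 without kainic acid library 1 or under upper-quartile factors and 0 without kainic acid library 2 or 3 or PBS library 1 or 2 or with the replicate block. Sat1, which starts polyamine breakdown, had 9.09, 7.42 and 10.3 CPM after kainic acid and 2.01, 2.16 and 1.34 CPM after PBS (log2 change 2.28 ± 0.29), and Odc1, which starts synthesis, had 108, 77.8 and 90.7 CPM after kainic acid and 24.8, 25.9 and 20.4 CPM after PBS (log2 change 1.96 ± 0.15). So the entry enzymes of both synthesis and breakdown rose.

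Nuclear-encoded respiratory chain genes rose in 3 of 69 and fell in 3 (median log2 change -0.11), both far under the shares of all genes. Those counts moved with single libraries and settings: rises were 5 without kainic acid library 1 and 1 without kainic acid library 3 or PBS library 2 or 3 or under upper-quartile factors, and falls were 10 without kainic acid library 2, 1 without PBS library 1, 5 in the fit to all 12 libraries and 11 under upper-quartile factors. Of 7 tested mitochondrially encoded genes, 0 were called by edgeR (5 at an unadjusted p under 0.05, 1 rise by DESeq2 or with the replicate block and 7 rises without kainic acid library 2), with a median log2 change of 0.40 (0.26 without PBS library 1).

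Receptor and channel genes changed in both directions, and the balance differed between the lists. Of 26 tested ionotropic glutamate receptor and auxiliary genes 10 fell and 3 rose (median log2 change -0.20). The falls were 6 without kainic acid library 3 and 4 without PBS library 3. The list named 35 genes, of which 26 were in the deposited tables. The AMPA receptor subunit genes Gria1, Gria2, Gria3 and Gria4 were absent, as were Grik1, Grin2c, Neto1, Dlg1 and Dlg4. The counts therefore say nothing of the AMPA receptor subunits themselves. The falls held the NMDA receptor subunit genes Grin2a, Grin2b and Grin3a and 3 Shisa auxiliary genes. Cacng5, an auxiliary subunit of AMPA receptors, had 9.75, 10.4 and 9.85 CPM after kainic acid and 14.3, 14.2 and 18.5 CPM after PBS (log2 change -0.65 ± 0.17), and that call ended without PBS library 3 (adjusted p = 0.0865). Gsg1l (1.04 ± 0.13) and Cacng3 (0.91 ± 0.21), which also encode AMPA receptor auxiliaries, were among the rises on the log2 scale. Metabotropic glutamate receptors fell in 4 of 6 (median log2 change -0.57), with 1 rise without kainic acid library 2 or with the replicate block. Grm3 had 41.6, 24.6 and 26.7 CPM after kainic acid and 53.7, 52.9 and 58.5 CPM after PBS (log2 change -0.83 ± 0.18), and Grm5 and Grm2 fell by 0.57 each on the log2 scale.

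Genes of inhibitory synapses fell in 7 of 19 and rose in 2 (median log2 change -0.16); falls were 4 without PBS library 2, and rises 0 without PBS library 1 and 1 without kainic acid library 3 or PBS library 2 or 3 or in the fit to all 12 libraries. Gabra5, the α5 subunit of extrasynaptic receptors, had 400.5, 446 and 412 CPM after kainic acid and 626, 670.1 and 631 CPM after PBS (log2 change -0.61 ± 0.08), and Gabrb2 had a log2 change of -0.49 ± 0.07. Gabra2 rose (0.52 ± 0.13), a call that ended without kainic acid library 3 or PBS library 1 or 2 (adjusted p 0.0554 to 0.0688).

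Amine and acetylcholine receptor genes split, with 7 rises and 9 falls of 32 (median log2 change 0.08, and below 0 under upper-quartile factors or without kainic acid library 1 or 3). The rises were near the share of all genes tested, and the falls lay above it. Htr5b, a serotonin receptor, was the largest fall by fold among genes with a mean log2 CPM of at least 3 over the 6 libraries and no overlap of the groups, with 5.66, 4.58 and 7.31 CPM after kainic acid, against 33.6, 29.6 and 38.6 CPM after PBS (log2 change -2.53 ± 0.19, edgeR adjusted p = 1.47e-05). Every kainic acid library was far below every PBS library. Drd4, a dopamine receptor, had 13, 57 and 41 counts after kainic acid and 0 in each PBS library, at least 46.7-fold higher. Adra1a, an adrenergic receptor (1.98 ± 0.20), and Drd1a (1.79 ± 0.28) rose on the log2 scale.

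Voltage-gated sodium and calcium channel genes fell in 10 of 21 and rose in 0 (1 rise without kainic acid library 1 or 2), with a median log2 change of -0.37. Scn3a had 19.8, 34.0 and 27.1 CPM after kainic acid and 53.3, 66.0 and 61.0 CPM after PBS (log2 change -1.15 ± 0.18). The falls held the main sodium channel genes of excitatory neurons and interneurons (Scn1a, Scn2a1 and Scn8a) and the β subunit genes Scn2b and Scn3b. Cacna1d, an L-type calcium channel, had a log2 change of -0.73 ± 0.14. Potassium and HCN channel genes changed both ways, with 12 rises and 18 falls of 48 (median log2 change -0.14). Hcn4, a pacemaker channel, had 4.74, 4.36 and 4.98 CPM after kainic acid and 1.51, 1.4 and 0.860 CPM after PBS (log2 change 1.88 ± 0.35), and Kcnf1 (1.49 ± 0.21), Kcnk1 (1.43 ± 0.21) and Kcnd3 (1.14 ± 0.12) also rose on the log2 scale. The falls ran from -1.14 (Kcnd1) to -0.37 (Kcnj3) on the log2 scale, and held Kcna2, Kcnd2 and Kcnq3.

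**Figure D4:**
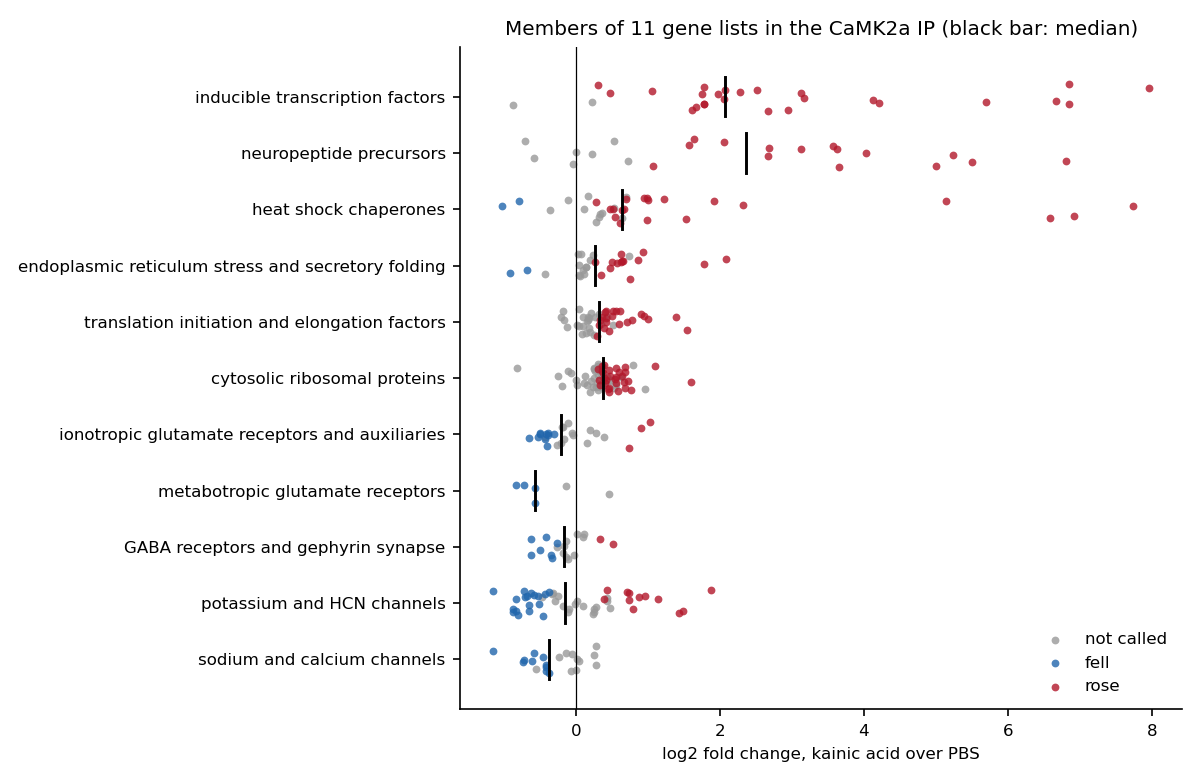
Log2 change after kainic acid (horizontal axis) of each tested member of 11 gene lists in the CaMK2a IP; coloured points are members that rose or fell, grey points others, and the black bar is the list's median. The medians of the 5 receptor and channel lists lie between -0.57 and -0.14, and that of the inducible transcription factors lies at 2.07.

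The 12 largest falls by fold also held Tox3 (-2.28 ± 0.29), a chromatin-associated HMG-box gene, Ankrd63 (-2.14 ± 0.22), Lct (-2.12 ± 0.19), Kif26b (-1.93 ± 0.23), St6gal2 (-1.91 ± 0.15), Arhgap12 (-1.90 ± 0.13), Orai3 (-1.86 ± 0.21), Klf3 (-1.86 ± 0.13), Fam13a (-1.76 ± 0.20) and Dbp (-1.70 ± 0.17), all as log2 changes. Gpr12, an orphan receptor, had 15, 15.7 and 12.6 CPM after kainic acid and 66.8, 64.8 and 61.9 CPM after PBS (log2 change -2.16 ± 0.13), with tight replicates in both groups. Klf3, a Krüppel-like repressor, had 32.7, 32.5 and 25.4 CPM after kainic acid and 99.6, 117 and 112 CPM after PBS. Orai3, a subunit of store-operated calcium channels, had 10.9, 18.9 and 11 CPM after kainic acid and 42.6, 51.2 and 55.1 CPM after PBS. None of the 12 fell as far as the twelfth largest rise, and among genes at that level the extremes were -2.53 for Htr5b and 6.92 for Hspa1a on the log2 scale.

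In abundance, the largest losses in mean CPM were those of calcium signalling and cytoskeletal genes. Calm2, a calmodulin gene, averaged 4421 ± 593 CPM after kainic acid and 6316 ± 351 CPM after PBS (SD, n = 3 each; log2 change -0.51 ± 0.10). Ppp3ca, the catalytic subunit of calcineurin, averaged 2397 ± 283 CPM after kainic acid and 3377 ± 106 CPM after PBS (log2 change -0.49 ± 0.09). Chn1 (-0.59 ± 0.07), a Rac regulator, Slc24a2 (-0.64 ± 0.10), a sodium-calcium exchanger, and Tmod2 (-0.50 ± 0.07), an actin capper, also fell. Camk2a, whose promoter drives the Cre, averaged 6389 ± 547 CPM after kainic acid and 7813 ± 745 CPM after PBS (log2 change -0.29 ± 0.09). That call ended without any 1 of 5 of the 6 libraries (adjusted p 0.052 to 0.134) and with replicate number as a block. Hpca (log2 change -0.35 ± 0.11) lost its call without any 1 of 5 libraries as well (adjusted p 0.0607 to 0.13), and Grin2b (-0.39 ± 0.11) without kainic acid library 3 or PBS library 1 or 3 (adjusted p 0.0899 to 0.0916).

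Presynaptic and adhesion genes showed few large changes. Of 39 release machinery genes 7 rose and 5 fell (median log2 change 0.11); the rises were 3 or 4 without kainic acid library 3, PBS library 1 or 2, under upper-quartile factors or with the replicate block, and the falls 8 without kainic acid library 1 or 2 and 10 under upper-quartile factors. The 7 rises and 5 falls were near the shares of all genes tested. Of 51 release genes listed, 39 were in the deposited tables. Stx1a, Unc13a, Rims1 and Rims2 were among those absent. Sv2c (0.81 ± 0.19) and Stx3 (0.77 ± 0.15) rose and Doc2b fell (-0.56 ± 0.09) on the log2 scale. Synaptic adhesion genes rose in 8 and fell in 14 of 46 (median log2 change -0.02; 3 to 5 rises without kainic acid library 3 or any 1 PBS library). Lrfn2, an adhesion protein of glutamatergic synapses, had 20.9, 23.2 and 29.4 CPM after kainic acid and 7.98, 9.28 and 11.4 CPM after PBS (log2 change 1.37 ± 0.19), and Slitrk1 fell (-0.89 ± 0.08), as did Nlgn1 and Nlgn3. Axon guidance genes rose in 7 and fell in 13 of 49 (median log2 change -0.12). Unc5b, a netrin receptor, had 26.3, 40.7 and 28.6 CPM after kainic acid and 4.40, 4.70 and 4.11 CPM after PBS (log2 change 2.86 ± 0.21). Nrp1, a semaphorin co-receptor, had 300.4, 306 and 345 CPM after kainic acid and 114, 123 and 135 CPM after PBS (log2 change 1.36 ± 0.10), and Sema5a fell (-1.18 ± 0.18).

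Endocannabinoid genes rose in 3 and fell in 4 of 12 (median log2 change -0.26; 7 falls under upper-quartile factors). The receptor gene Cnr1 had 307, 274 and 249.8 CPM after kainic acid and 155, 188 and 176 CPM after PBS (log2 change 0.68 ± 0.11). Daglb, a synthetic enzyme, rose (0.80 ± 0.15), and Faah, which degrades anandamide, fell (-0.73 ± 0.12). Mgll, which degrades 2-arachidonoylglycerol, was also among the falls. Napepld, a synthetic enzyme of anandamide, had a log2 change of -0.54 ± 0.14, and its call ended without PBS library 3 (adjusted p = 0.0555).

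Clock genes rose in 9 and fell in 4 of 18 (median log2 change 0.23). Nfil3 had 178, 71.5 and 164 CPM after kainic acid and 6.98, 6.61 and 8.70 CPM after PBS (log2 change 4.21 ± 0.33), and Dbp, which acts on the same sites with the opposite effect, had 13.0, 21.8 and 17.2 CPM after kainic acid and 61.8, 51.7 and 55.9 CPM after PBS (log2 change -1.70 ± 0.17). The repressor genes Per1, Per2, Cry1 and Cry2 were among the rises, and Nr1d1, Nr1d2 and Hlf among the falls; Clock and Arntl were not called. Genes known to respond to glucocorticoids rose in 8 of 13 and fell in 0 (median log2 change 1.06; 0.485 without kainic acid library 1). Cdkn1a, a cell cycle inhibitor, had 245, 131 and 211 CPM after kainic acid and 11.3, 9.66 and 11.4 CPM after PBS (log2 change 4.17 ± 0.23), and the metallothionein gene Mt2 had 315, 170 and 263 CPM after kainic acid and 46.9, 62.5 and 52.3 CPM after PBS (log2 change 2.21 ± 0.21). Fkbp5, a standard glucocorticoid target, had a log2 change of 0.10 ± 0.11 and was not called. Chromatin and DNA methylation enzymes rose in 10 and fell in 9 of 53 (median log2 change -0.08), both near the shares of all genes tested. The falls were 5 without kainic acid library 3 or PBS library 1 or 3, and 15 under upper-quartile factors. Kdm6b, a demethylase of the Polycomb mark, had 189, 137 and 142 CPM after kainic acid and 25.4, 25.9 and 31.4 CPM after PBS (log2 change 2.50 ± 0.15), and Tet3, which oxidises methylcytosine, had 539.8, 367 and 479 CPM after kainic acid and 101, 102 and 92.3 CPM after PBS (log2 change 2.23 ± 0.14).

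Markers of cell types differed in how they moved. Of 14 CA1 pyramidal markers, 6 fell and 0 rose (median log2 change -0.18; -0.354 without kainic acid library 2), with a summed level of 10293 to 12202 CPM after kainic acid, against 12909 to 14457 CPM after PBS. Neurod6, a transcription factor of excitatory neurons, had 301, 289 and 253 CPM after kainic acid and 657, 634 and 627 CPM after PBS (log2 change -1.19 ± 0.09), and Fibcd1 had 73.5, 90.3 and 70.7 CPM after kainic acid and 149, 136 and 141 CPM after PBS (log2 change -0.86 ± 0.11). CA2 and CA3 markers rose in 1 and fell in 1 of 10, with 0 to 2 rises as libraries were left out and 0 falls without PBS library 3, and dentate markers rose in 3 and fell in 3 of 8, with 1 rise without kainic acid library 3 or PBS library 1 or 3. Dsp, a desmosomal gene used as a marker of dentate granule cells, had 0.790, 1.96 and 0.318 CPM after kainic acid and 11.1, 18.2 and 16.1 CPM after PBS (log2 change -3.85 ± 0.44). Its PBS libraries lay above every kainic acid library, and Lct and Stxbp6 (-1.55 ± 0.15) of the same list also fell.

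Glial markers were low but present. Reactive astrocyte genes rose in 13 of 16 and fell in 0 (median log2 change 2.46). Their summed level was 1037 to 1729 CPM after kainic acid, against 209 to 245 CPM after PBS. Most of that sum after kainic acid was Ptgs2 alone, at 1223, 725 and 1320 CPM. Several members (Ptgs2, Hspb1, Timp1, Osmr and Ptx3) are also in the lists above. Sphk1 had 5.93, 3.93 and 7.42 CPM after kainic acid and 0.0629, 0.127 and 0.382 CPM after PBS (log2 change 4.92 ± 0.57), and Cd14 had 7.77, 3.05 and 5.08 CPM after kainic acid and 0, 0.254 and 0.287 CPM after PBS (log2 change 5.01 ± 0.72). Both were near 0 after PBS, so the size of these changes is uncertain. General astrocyte markers rose in 2 and fell in 1 of 14 (median log2 change 0.50; 0.027 without kainic acid library 1 and 0.261 without PBS library 3), with summed levels of 1338 to 2611 CPM after kainic acid and 1390 to 2091 CPM after PBS that overlapped. Those rises were 6 without kainic acid library 2, and 1 without kainic acid library 1 or 3 or PBS library 1 or 3, under upper-quartile or relative log expression factors, with no filter or with the replicate block; the falls were 2 without kainic acid library 1 and 0 without PBS library 2 or 3. Sox9, an astrocyte transcription factor, had 54.8, 34.6 and 56.6 CPM after kainic acid and 9.18, 9.91 and 9.37 CPM after PBS (log2 change 2.36 ± 0.20). Microglia markers rose in 5 of 12 and fell in 0, with summed levels of 64.2 to 132.8 CPM after kainic acid and 55.7 to 87.4 CPM after PBS. Their rises were 0 without kainic acid library 1 or 3 or PBS library 1 or 3 or with the replicate block, 2 without PBS library 2 and 1 under upper-quartile factors, and 2 fell without kainic acid library 1. No marker of oligodendrocytes (of 11), their precursors (of 9) or endothelial and mural cells (of 10) was called by edgeR as fitted above or by DESeq2, with 1, 0 and 1 of them at an unadjusted p under 0.05 in edgeR, but 3 oligodendrocyte markers fell without kainic acid library 1 and 1 in the fit to all 12 libraries. Likewise 1 endothelial or mural marker fell under upper-quartile factors, with the stricter filter or in the fit to all 12 libraries. The part of glial RNA in the rises of cytokine, matrix and reactive genes was not tested.

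The input libraries, made from the same lysate pools, show whether the response on tagged ribosomes differs from that of the whole tissue. The test of the difference between the effects found 12 of 11623 genes (0.103%), of which 5 were more positive in the IP (0.043%) and 7 more negative (0.0602%). With the shared lysate pool as a block, 26 genes were more positive and 31 more negative. The genes that rose at least 2-fold in the IP had a median log2 change of 1.58 in the IP and 1.39 in the input, and those that fell had -1.35 in the IP and -0.94 in the input; the sets were chosen on the IP values, so these medians are not independent of that choice. The list medians ran side by side for the transcription factors, at 2.04 in the IP and 2.59 in the input, and for regulators of G protein signalling, at 1.01 in the IP and 0.42 in the input, with no test of either difference.

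Among the genes more positive in the IP, Npy changed by 4.01 ± 0.35 in the IP and 1.5 ± 0.26 in the input on the log2 scale (difference 2.52 ± 0.44, edgeR adjusted p = 0.0328). Ptgs1 changed by 2.44 ± 0.24 in the IP and 0.12 ± 0.17 in the input (difference 2.32 ± 0.29, edgeR adjusted p = 0.00206). Its input levels were 23.3 ± 4.57 CPM after kainic acid and 21.6 ± 2.31 CPM after PBS (SD, n = 3 each), close to each other, while its IP groups did not overlap. Unc5b changed by 2.83 ± 0.19 in the IP and 0.88 ± 0.15 in the input (difference 1.95 ± 0.24, edgeR adjusted p = 0.00177). Ednrb, an endothelin receptor, changed by 2.39 ± 0.22 in the IP and 0.63 ± 0.19 in the input (difference 1.76 ± 0.29, edgeR adjusted p = 0.027). Rgs10 changed by 1.47 ± 0.19 in the IP and -0.01 ± 0.16 in the input (difference 1.48 ± 0.25, edgeR adjusted p = 0.027). All 5 were higher after kainic acid in the IP. Among the genes more negative in the IP, Cebpd, a transcription factor of inflammatory responses, changed by -0.08 ± 0.26 in the IP and 1.92 ± 0.24 in the input (difference -2.0 ± 0.35, edgeR adjusted p = 0.0328). Itpkb, an inositol phosphate kinase, changed by -0.54 ± 0.19 in the IP and 1.37 ± 0.18 in the input (difference -1.91 ± 0.26, edgeR adjusted p = 0.00446). Thbd, for thrombomodulin of endothelial cells, changed by -0.03 ± 0.14 in the IP and 1.58 ± 0.13 in the input (difference -1.62 ± 0.19, edgeR adjusted p = 0.00142). These 3 had positive effects in the input. In the IP, those of Cebpd and Thbd lay within their SE of 0, and that of Itpkb lay below 0. Klf3 changed by -1.89 ± 0.13 in the IP and -0.34 ± 0.12 in the input (difference -1.55 ± 0.17, edgeR adjusted p = 0.00142), and Sh3bp4 by -1.71 ± 0.17 in the IP and -0.38 ± 0.15 in the input (difference -1.33 ± 0.23, edgeR adjusted p = 0.028). Both had the more negative effect on tagged ribosomes. Ralb, a small GTPase, changed by -0.84 ± 0.16 in the IP and 0.45 ± 0.15 in the input (difference -1.30 ± 0.22, edgeR adjusted p = 0.027). The calls of 6 of these genes ended when 1 library was left out: Npy, Cebpd and Sh3bp4 without any 1 of 9 of the 12 libraries, Rgs10 and Ralb of 8 and Ednrb of 6, with adjusted p up to 0.189 for Npy. Astrocyte and microglia markers were far higher in the input, as given above, and their part in these differences was not tested.

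The PV-Cre line tags parvalbumin interneurons, and its IP shows which responses differ between the lines. The line goes together with the number of mice pooled and the RNA used, and their part cannot be told apart from it. The difference between the effects was called for 11 of 11781 genes (0.0934%), 8 more positive in the CaMK2a IP (0.0679%) and 3 more negative (0.0255%). With PV replicates 1 to 3 only, 39 genes were more positive and 31 more negative. PV replicate 4 had 0.910% mitochondrial counts after kainic acid and 0.795% after PBS. The other PV IP libraries had 2.80% to 3.38% after kainic acid and 1.90% to 2.01% after PBS. Why the count depends on replicate 4 was not tested. The genes that rose at least 2-fold in the CaMK2a IP had a median log2 change of 1.60 there and 1.15 in the PV IP, again as sets chosen on the CaMK2a values. The transcription factor list had a median of 2.04 in the CaMK2a IP and 3.62 in the PV IP, with no test of that difference.

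Tll1, a metalloproteinase that acts on matrix and growth factor precursors, changed by 5.56 ± 0.43 in the CaMK2a IP and 1.05 ± 0.28 in the PV IP on the log2 scale (difference 4.51 ± 0.49, edgeR adjusted p = 0.000163). It averaged 52.5 ± 18.7 CPM after kainic acid and 1.14 ± 0.713 CPM after PBS in the CaMK2a IP and 99.1 ± 21.7 CPM after kainic acid and 48.0 ± 13.1 CPM after PBS in the PV IP (SD, n = 3 and n = 4). Bag3 changed by 5.13 ± 0.28 in the CaMK2a IP and 1.82 ± 0.21 in the PV IP (difference 3.31 ± 0.32, edgeR adjusted p = 4.88e-05). So the co-chaperone with one of the largest rises in the CaMK2a IP had a smaller effect in the PV IP. Lbh, a transcription cofactor, changed by 3.28 ± 0.30 in the CaMK2a IP and 1.03 ± 0.23 in the PV IP (difference 2.25 ± 0.36, edgeR adjusted p = 0.0131), and Cgref1, a calcium-binding protein, by 3.37 ± 0.28 in the CaMK2a IP and 1.21 ± 0.22 in the PV IP (difference 2.17 ± 0.34, edgeR adjusted p = 0.0125). Ubash3b, a phosphatase, changed by 1.44 ± 0.27 in the CaMK2a IP and -0.66 ± 0.22 in the PV IP (difference 2.10 ± 0.35, edgeR adjusted p = 0.0135). Fam43a changed by 1.19 ± 0.22 in the CaMK2a IP and -0.60 ± 0.18 in the PV IP (difference 1.79 ± 0.28, edgeR adjusted p = 0.0125). Both had effects of opposite sign in the 2 lines. The 3 more negative genes were Egr1, an early transcription factor, which changed by 1.66 ± 0.33 in the CaMK2a IP and 3.99 ± 0.32 in the PV IP (difference -2.33 ± 0.44, edgeR adjusted p = 0.0432), Klf3, by -1.87 ± 0.23 in the CaMK2a IP and -0.11 ± 0.19 in the PV IP (difference -1.76 ± 0.29, edgeR adjusted p = 0.0135), and March4, a ubiquitin ligase, by -0.89 ± 0.20 in the CaMK2a IP and 0.55 ± 0.17 in the PV IP (difference -1.43 ± 0.27, edgeR adjusted p = 0.0432). Klf3 is thus in both sets of differences, with its fall in the CaMK2a IP set against effects nearer 0 in the input and in the PV IP. The calls of Egr1 ended without any 1 of 11 of the 14 libraries and those of March4 of 10, with adjusted p up to 0.213 for both; Cgref1, Klf3, Ubash3b, Lbh and Fam43a lost theirs without 2 to 4 of them.

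**Figure D5:**
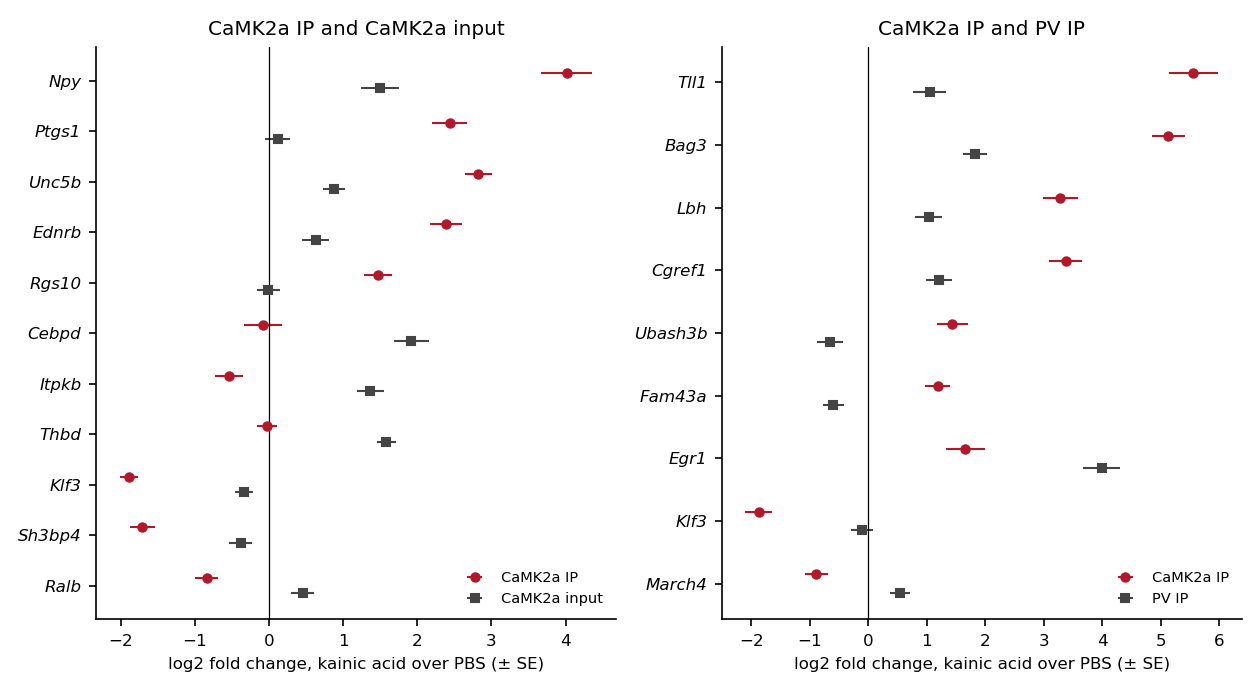
Log2 change after kainic acid (horizontal axis, with SE) of the named genes whose effects differed: 11 genes in the CaMK2a IP and CaMK2a input, and 9 genes in the CaMK2a IP and PV IP. Klf3 is in both panels, and Tll1 has the widest gap between the lines, 5.56 against 1.05.

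GENCODE M21 lists 196 of 199 genes checked for overlaps, and in 50 an exon lies across from an exon of another gene on the opposite strand. Whether counting used strand is not given in the sources used here, so the reads of such partners cannot be told apart. The 50 include Bdnf, Arpp21, Thbs1, Pcdh8, Hspa1a, Nefl (with Nefm), Hars (with Hars2), Cdkn1a, Ptgs1, Cebpd, Itpkb, Klf3, Kdm6b and Dsp.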

How the data were processed

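The counts of 6 CaMK2a IP libraries were joined from the deposited tables of rising and falling genes (13384 genes), and those of 6 CaMK2a input and 8 PV IP libraries likewise. Per the submitters' processing notes, reads were aligned with BWA to mm10 (GRCm38) and compared with edgeR; versions, strand and the counting tool are not given in the sources used here. The deposited counts are whole reads per coding gene and were used as they stand. The authors' deposited RPKM values, fold ratios and p-values served as a check: at a false discovery rate under 0.05 the authors' deposited table holds 2121 higher and 1717 lower genes, and 3491 genes were called in both. The deposited tables hold genes above a low minimum of reads, set by the submitters. Some members of the gene lists were not found in the CaMK2a IP tables. They include Gria1, Gria2, Dlg4, Gfap, Aqp4, Stx1a, Unc13a and Rpl22, the gene that carries the tag. Whether that minimum accounts for their absence was not tested.

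CPM were computed from total counts times TMM factors, set within the libraries of each fit. Genes passing filterByExpr (minimum count 10) were fitted with edgeR 4.0.16 in R 4.3.3 (TMM factors, glmQLFit, glmQLFTest, prior count 0.125), with Benjamini-Hochberg adjustment over all 10663 genes tested and a threshold of 0.05; 2721 genes were not tested. Fold changes are kainic acid over PBS, and the SE was taken as the absolute log2 change divided by √F of that test. For genes near 0 CPM after PBS the size of the log2 change depends on the prior count. Differences of effects were interaction contrasts in models of group means over 12 (IP and input) or 14 (CaMK2a and PV IP) libraries. IP and input of the same number share a lysate pool: same-number correlations of deviations were 0.213, 0.194 and 0.149 after kainic acid and 0.0255, 0.054 and 0.109 after PBS. Alternatives were other normalization factors, other filters, DESeq2 1.42.0, a replicate block, the fit to 12 libraries, PV replicates 1 to 3 only and leaving out each library. Libraries of a group differed beyond counting noise, so none was counted as a repeat of another.

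The members and gene lists were chosen with earlier results of these data known; lists are given by counts and medians, with no test. Named genes were the 4 given ones; the 12 largest rises and falls by fold and the 8 largest in CPM among called genes with no overlap of groups and a mean log2 CPM of at least 3; up to 4 called members per list by size of change; and the 6 most positive and negative differences of effects; some genes that met this rule are not reported here. Promoter windows are RefSeq, GRCm38.p6; exon overlaps are from GENCODE M21. Floors cover counting error only, since reads without molecular identifiers are not independent molecules. Genes absent from these tables were not analysed here.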

Additional observations from a re-analysis of the deposited data

Results flagged for a closer look

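The effect of kainic acid differed between the CaMK2a IP and the CaMK2a input, by edgeR's test of the interaction, for 11 genes with a mean log2 CPM of at least 3. The log2 difference, IP minus input, was 2.52 for Npy, 2.32 for Ptgs1, 1.95 for Unc5b, 1.76 for Ednrb and 1.48 for Rgs10. It was -2.0 for Cebpd, -1.91 for Itpkb, -1.62 for Thbd, -1.55 for Klf3, -1.33 for Sh3bp4 and -1.30 for Ralb.

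Between the CaMK2a IP and the PV IP the same test found a difference for 9 such genes. The log2 difference, CaMK2a IP minus PV IP, was 4.51 for Tll1, 3.31 for Bag3, 2.25 for Lbh, 2.17 for Cgref1, 2.10 for Ubash3b and 1.79 for Fam43a. It was -2.33 for Egr1, -1.76 for Klf3 and -1.43 for March4. Klf3 appears in both comparisons, which share the CaMK2a IP libraries.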

How the results depend on the processing

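In the CaMK2a IP, rises and falls numbered 2077 and 1663 with relative log expression factors, 1674 and 2276 with upper-quartile factors, 2058 and 1662 with no filter, 2128 and 1653 with the stricter filter, 2092 and 1638 with DESeq2 and 2198 and 1979 in the fit to 12 libraries. Leaving out 1 library gave 1479 to 2318 rises and 979 to 1924 falls. Replicate numbers did not pair kainic acid with PBS libraries (same-number correlations of deviations -0.0704, -0.183 and 0.153); with the number as a replicate block there were 1849 rises and 1354 falls. Over 186 gene changes that met the naming rule or were singled out no sign reversed; calls that ended numbered 11 with the replicate block, 8 with upper-quartile factors, 3 with no filter, 2 with relative log expression factors, 1 in the fit to 12 libraries, 0 with DESeq2 or the stricter filter, and 2 to 20 when 1 library was left out.

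For IP minus input, 5 genes were more positive and 7 more negative. There were 26 and 31 with the lysate pool as a replicate block and 34 and 37 with DESeq2. With no filter 9 were more positive. Leaving out 1 library gave 2 to 29 more positive and 3 to 39 more negative genes; the extremes came without kainic acid IP library 2 (29 positive) and without kainic acid IP library 1 (39 negative). For CaMK2a IP minus PV IP, 8 genes were more positive and 3 more negative. There were 21 and 18 with DESeq2, 39 and 31 with PV replicates 1 to 3 only, 2 more negative with upper-quartile factors, and with replicate number within line as a block 14 more positive and 3 more negative. Leaving out 1 library gave 2 to 18 and 0 to 6 genes, with 0 more negative without kainic acid CaMK2a IP library 3 or any 1 of its PBS libraries. The cause of these movements was not tested. With 3 pools a group and 7.48 M to 15.3 M counts a library, genes with few counts and small changes are those least able to pass the test.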
